A study of Mus with 7 samples.

Results

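Docosahexaenoic acid (DHA) was compared with vehicle in macrophages exposed to lipopolysaccharide (LPS) for 4 h, by setting the library DHA.LPS.4 against the library Veh.LPS.4 and describing genes in both directions. A barcode was kept as a cell when it had over 20000 unique molecular identifiers (UMIs, tags that each count 1 captured RNA molecule), at least 2000 detected genes and under 20% of its UMIs in mitochondrially encoded genes. These limits kept 692 cells of DHA.LPS.4 and 993 cells of Veh.LPS.4, together 1685 of the 11640 cells kept over the 7 libraries of the series. The cells were fetal liver-derived macrophages (FLMs), a self-renewing culture from wild-type C57BL/6J mice that is kept in 30 ng/mL granulocyte-macrophage colony-stimulating factor (GM-CSF). The authors of the study regard it as close to an inflammatory macrophage of monocyte origin, which may differ from the macrophages resident in a tissue. For Veh.LPS.4 the FLMs spent 24 h in medium with 0.25% fetal bovine serum and 8.3 µM bovine serum albumin (BSA), the carrier of the fatty acid. For DHA.LPS.4 the same amount of BSA carried 25 µM DHA. Both cultures, GM-CSF included, then received 20 ng/mL LPS for 4 h. The series also holds both pretreatments at 0 and 1 h of LPS, which are given beside the 4 h values, and a culture in full serum that is not used here.

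Each condition was 1 library, so no test between conditions could be made, and what DHA did cannot be told apart from any other difference between the libraries. UMIs were summed over the cells of a library and expressed as CPM, the UMIs of a gene scaled to a common total per library, which measures the share of the captured RNA that the gene takes. Ratios are DHA over vehicle on the log2 scale of CPM, with exact binomial 95% intervals that cover counting error only. A gene was counted as past the limits when it differed by more than 1.5-fold and was detected in 25% or more of the cells on at least 1 side.

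The libraries differed in depth and in the barcodes lost. The median kept cell had 29631 UMIs in DHA.LPS.4 and 56239 UMIs in Veh.LPS.4, and the summed UMIs were 22045775 and 58598526. The mitochondrial limit was reached by 80.0% of the 5722 barcodes of DHA.LPS.4 and by 54.7% of the 2443 barcodes of Veh.LPS.4. Among the cells kept, the median mitochondrial share was 6.61% and 6.71%, and the nuclear RNA Malat1 took 13136 and 13170 CPM. When each cell was thinned to 20000 UMIs, the median number of detected genes was 3853.5 in DHA.LPS.4 and 3738 in Veh.LPS.4. The libraries had 6 barcode sequences in common, of which 1 was a kept cell in both.

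The macrophage label was checked against marker genes. All 9 macrophage markers were detected in both libraries, every cell carried at least 6 of them, and they summed to 7089 CPM with vehicle and 6851 CPM with DHA. No cell carried 3 or more markers of neutrophils, mast cells, erythroid, hepatocyte, stromal, dendritic or lymphoid cells. The neutrophil list summed to 2.61 CPM with vehicle and 7.53 CPM with DHA, nearly all of it S100a8, while S100a9, Ly6g, Mpo and Ngp had no UMI in either library. The hepatocyte list summed to 7.71 and 7.30 CPM, nearly all of it Afp, with no UMI of Alb or Ttr. The other marker lists stayed at or under 1.88 CPM. Since no other cell type was present, the level of free RNA in the droplets could not be measured.

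DHA is a long-chain polyunsaturated fatty acid of fish oil. Cells build such fatty acids into membrane lipids, burn them in mitochondria and peroxisomes, or store them in lipid droplets under a coat of perilipins. Polyunsaturated fatty acids are known to hold back the SREBP transcription factors, which drive the genes of cholesterol and fatty acid synthesis, and to act as ligands of the PPAR receptors, while their oxidised products can activate the antioxidant factor NRF2. LPS is sensed by TLR4 on macrophages. An early arm of the response runs through MyD88 to NF-kB and the genes of cytokines and chemokines, and a later arm runs through TRIF and IRF3 to interferon beta, which acts back on the cells through its receptor and factors that include STAT2 and IRF9 to induce antiviral genes.

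Of 7672 genes tested at 4 h, 170 (2.22%) were higher with DHA and 186 (2.42%) were lower. The median log2 ratio over these genes was 0.08, with quartiles of -0.06 and 0.21. Of the 12061 genes with at least 10 UMIs over both libraries, which are those called measured in a list, 61.9% had a ratio above 0, and with TMM factors 6068 of them did. The balance of the counts depended on the scaling: genes higher with DHA made up 47.8% of those past the limits with library totals, 32.2% with TMM factors, 31.1% with DESeq2 size factors and 6.77% after SCTransform correction, which moved the median log2 ratio to -0.10. They made up 37.7% when a UMI was asked for in 50% of cells, 17.3% at a 2-fold limit and 33.9% over all deposited barcodes. All 186 genes lower with DHA stayed past the limits with TMM, DESeq2 and SCTransform, as did 109, 106 and 46 of the 170 genes higher. TMM and DESeq2 factors each moved every log2 ratio down by the same amount, a shift of -0.08 with TMM. Under them no gene lower with DHA could be lost, and genes higher could only be lost. SCTransform also moved the median down. These counts therefore cannot tell whether the genes lower held better than the genes higher. Depth also bore on which genes could be counted. Of the 186 genes lower, 66 met the limit on cells in Veh.LPS.4 alone, as did 1039 of all the genes tested. Of the 170 genes higher, 10 met it in DHA.LPS.4 alone, and these were all 10 of the genes tested that did. In cells thinned to equal depth, 113 of the 170 and 127 of the 186 remained past both limits. Some genes named below met the limit on cells in neither library at that depth. On the higher side these included Klf2, Klf4, Anpep, Abcc5, Ptges, Kif11, Sgo1 and Nuf2. On the lower side they included Ifit1, Dhx58, Irf1, Igtp, Ifi47, Tap1, Il4i1, Cxcl10 and Dusp2. Fads2, Elovl6, Fabp4, Pmaip1, Mogat1, Psd3, Fbxo15 and Gm5483 were also among those lower.

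**Figure D1:**
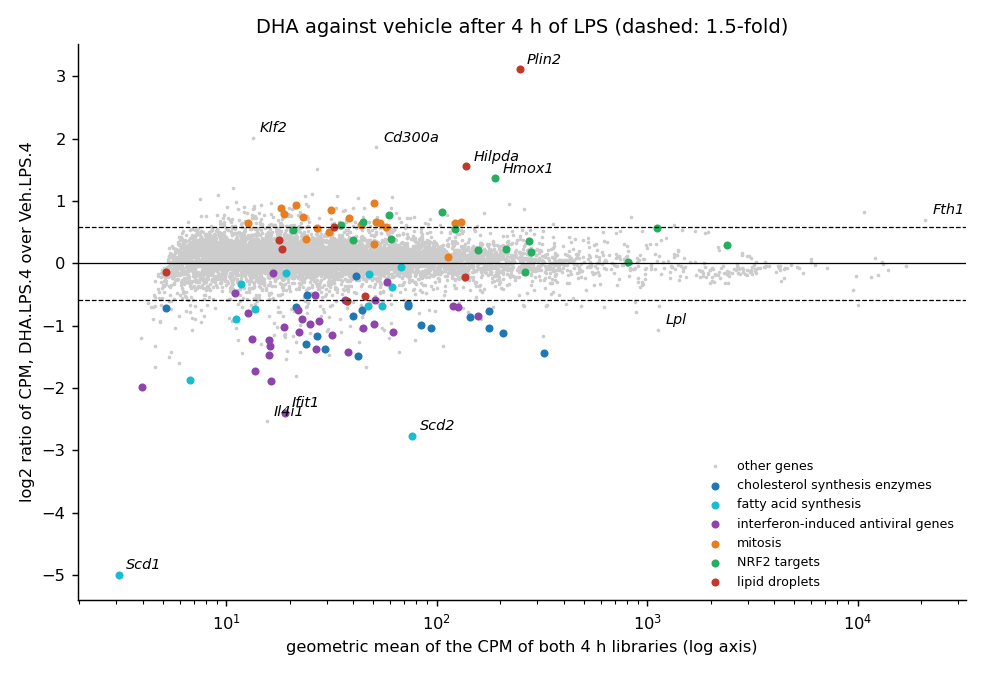
Log2 ratio of DHA.LPS.4 over Veh.LPS.4 (vertical axis) against the level of the gene, the geometric mean of both libraries on a log axis of CPM (horizontal axis). Each point is 1 of the 7672 tested genes, selected gene groups are coloured, and dashed lines mark 1.5-fold; Plin2 stands apart at the top and Scd1 at the bottom, the interferon-induced genes lie below 0 and most tested mitosis genes lie above the upper line.

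Genes were grouped in 34 lists by function. Of the 186 genes lower with DHA, 88 belonged to a list, compared with 34 of the 170 genes higher and 493 of all 7672 tested. The other 136 genes higher (80.0%) and 98 genes lower (52.7%) fell outside every list. Members with fewer than 10 UMIs in both libraries together were left out of list medians, and the median log2 ratio over all 12061 genes with that many UMIs was 0.08. Of those genes, 61.9% were above 0 and 38.1% below it.

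**Figure D2:**
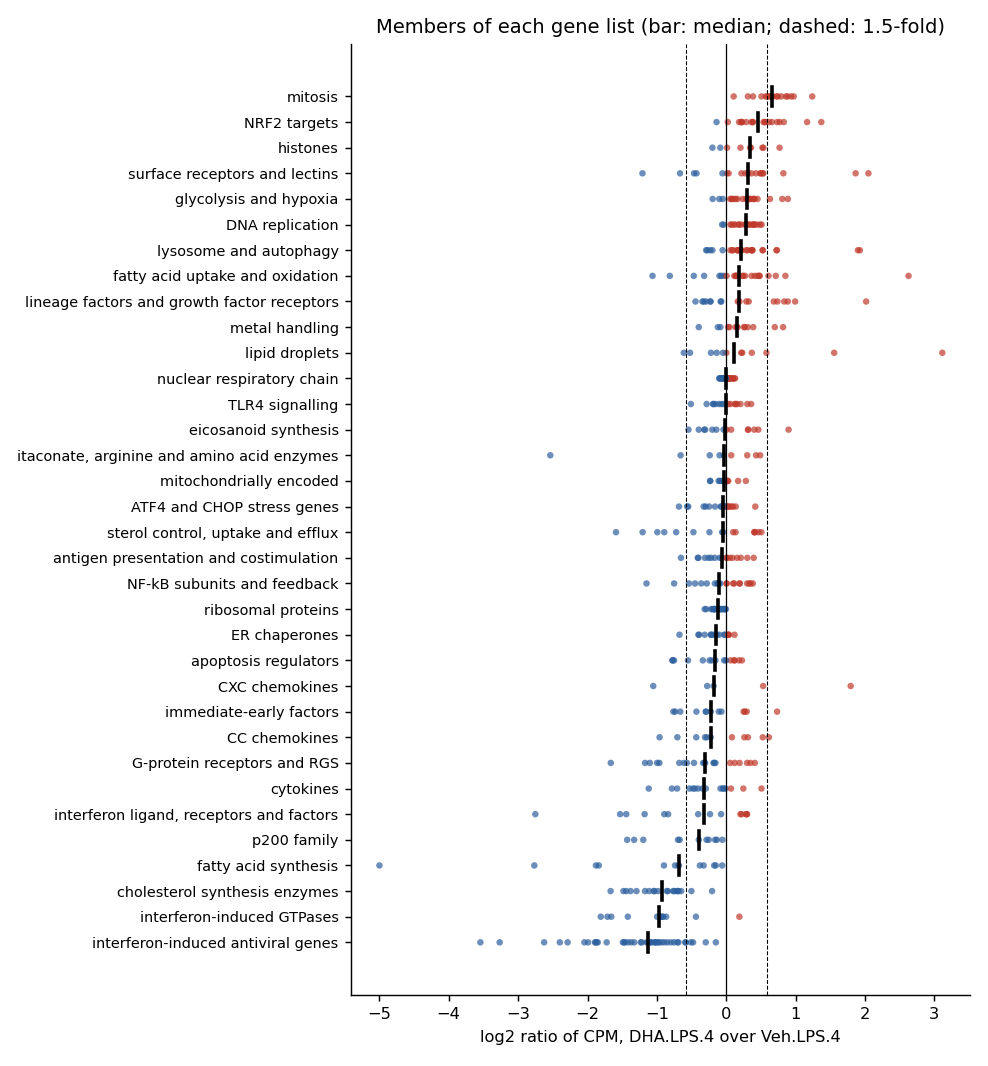
Log2 ratio of DHA.LPS.4 over Veh.LPS.4 (horizontal axis) for the members of each gene list (rows), 1 point per gene, with the list median as a bar. Members with no UMI in 1 library are not drawn; the cholesterol synthesis, fatty acid synthesis and interferon-induced antiviral lists lie wholly below 0, and the mitosis list lies wholly above it, where Ube2c falls below it after SCTransform correction.

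The gene with the highest ratio among those past the limits was Plin2, which encodes the perilipin that coats lipid droplets in most cells and lies on chromosome 4 (86626910 to 86670217 in the RefSeq annotation of mm10). It stood at 84.2 CPM with vehicle and 728 CPM with DHA, and was thus 8.65-fold higher with DHA (95% interval 8.38 to 8.93). At an equal depth of 20000 UMIs a cell, Plin2 was found in 67.6% and 99.6% of vehicle and DHA cells, and the median cell held 1 and 12 UMIs. The higher level of Plin2 was thus spread over nearly the whole DHA library. Hilpda, whose product inhibits the main triglyceride lipase of droplets, stood at 80.2 CPM with vehicle and 236 CPM with DHA, 2.94-fold higher with DHA (95% interval 2.82 to 3.06). Other members of the lipid droplet list were closer together. Acsl3, an acyl-CoA synthetase of growing droplets, was lower at 46.1 and 30.2 CPM, the 1 member past the limits in that direction, though not when cells were thinned to equal depth. Abhd5, the co-activator of droplet lipolysis, stood at 54.5 and 37.9 CPM and its lipase Pnpla2 at 15.7 and 20.3 CPM, neither past 1.5-fold. Of 12 members measured, 7 (58.3%) were higher (6 with TMM factors), against 61.9% of all genes, and 5 were lower. Of the 7 higher, 2 were past the limits. With TMM factors 2 members were past the limits on the lower side. The median of 0.11 was near that of all genes and fell below 0 after SCTransform correction.

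Genes of fatty acid uptake and oxidation did not share a direction. Lpl, the lipoprotein lipase that frees fatty acids from circulating triglyceride, stood at 1633 CPM with vehicle and 781 CPM with DHA, 2.09-fold lower with DHA (95% interval 2.06 to 2.12). Fabp4, a carrier of fatty acids in the cytosol, stood at 59.2 and 33.7 CPM and was also past the limits. On the side of oxidation, Acadl and Acadvl, which encode acyl-CoA dehydrogenases of the mitochondrial matrix, were higher at 72.3 and 119 CPM and at 14.9 and 22.7 CPM. Acadvl was past the limits with library totals but not with TMM factors, where its log2 ratio was 0.53. Cpt1a, the gate for long-chain fatty acids into mitochondria, was counted 65 times in Veh.LPS.4 and 151 times in DHA.LPS.4, a log2 ratio of 2.63 (95% interval 2.20 to 3.07), in too few cells to meet the limits. Slc25a20, the carnitine carrier of the same route, had a log2 ratio of 0.85 and was also found in too few cells. In all, 17 of 24 members (70.8%) were higher, against 61.9% of all genes, and 7 were lower, with 2 past the limits each way. With TMM factors 16 were higher, and 1 higher and 2 lower were past the limits. The list median was 0.19, and -0.08 after SCTransform correction. Ucp2, an uncoupling protein of the list, did not differ beyond counting error at 227 and 228 CPM.

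Fatty acid synthesis held the gene with the lowest ratio past the limits. Scd1, the desaturase that makes monounsaturated from saturated fatty acids (chromosome 19, 44394450 to 44407709), stood at 17.4 CPM with vehicle and 0.544 CPM with DHA, 32-fold lower with DHA (95% interval 18.2 to 62.1), on 1020 and 12 UMIs. Its paralogue Scd2 stood at 199 CPM with vehicle and 29.3 CPM with DHA, 6.81-fold lower with DHA (95% interval 6.29 to 7.38). At equal depth, Scd2 was found in 87% and 35.4% of vehicle and DHA cells and Scd1 in 25.6% and 0.867%, so most DHA cells lacked a Scd1 UMI. Fads2, a desaturase that acts on the way from dietary precursors to DHA itself, was lower at 12.9 and 3.49 CPM, a log2 ratio of -1.88 (95% interval -2.24 to -1.54). Elovl6, which lengthens saturated chains, and Acaca, the carboxylase of the committed step, had log2 ratios of -0.90 and -0.74. Fads1 and Elovl1 moved less, with log2 ratios of -0.38 and -0.06. All 13 members were lower, and 7 of the 12 tested were past the limits, against 2.42% of all genes. Scd1, Fads2 and Elovl6 met the limit on cells in Veh.LPS.4 alone, so the contrast is partly set by that limit. TMM factors lowered every ratio, so they could not change these signs. The list median was -0.69, and the median cell at equal depth held 11 UMIs of the list with vehicle and 6 with DHA.

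The cholesterol pathway was lower throughout. All 20 enzymes measured were below 0, against 38.1% of all genes. Of the 19 tested, 17 were past the limits, against 2.42% of all genes tested, and the median log2 ratio was -0.92. The enzymes span the route from acetyl units to cholesterol. Acat2, at its start, stood at 47.7 CPM with vehicle and 18.3 CPM with DHA. Pmvk, of the mevalonate steps, stood at 70.6 CPM with vehicle and 25.3 CPM with DHA, a log2 ratio of -1.48 (95% interval -1.61 to -1.35). Idi1 and Fdps make the isoprenoid units that sterols share with other products. Fdps stood at 532 CPM with vehicle and 196 CPM with DHA, 2.72-fold lower with DHA (95% interval 2.63 to 2.81), and Idi1 at 304 and 141 CPM. The sterol-forming steps behaved alike. Lss, which closes the sterol rings, stood at 37.5 and 15.3 CPM, Cyp51 at 254 and 123 CPM and Nsdhl at 40.7 and 18.1 CPM. Tm7sf2, with a log2 ratio of -1.67, was found in too few cells to be tested. At equal depth the median cell held 46 UMIs of the list with vehicle and 22 with DHA, and the 90th percentile of the DHA cells, at 39 UMIs, lay below the vehicle median. The medians kept their sign under all 10 alternatives, with values from -1.18 to -0.92.

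The genes that control, import and export sterols were mixed, with 7 of 16 higher, 9 lower and a median of -0.05. Insig1, an SREBP target that retains the SREBP escort in the endoplasmic reticulum, stood at 90.1 CPM with vehicle and 39.1 CPM with DHA, 2.31-fold lower with DHA (95% interval 2.15 to 2.48). Stard4, a carrier of cholesterol in the cytosol, had a log2 ratio of -0.72, and these were the 2 members past the limits. Abca1, Abcg1 and Mylip, targets of the sterol sensor LXR, were all counted rarely and stood at 1.23 and 0.408 CPM, at 5.79 and 2.9 CPM and at 2.87 and 1.54 CPM. Soat1, which esterifies cholesterol for storage, and Npc1, which moves it out of the lysosome, were higher with log2 ratios of 0.46 and 0.51, short of the limit.

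Targets of NRF2 were higher. Of 20 measured, 19 were higher, against 61.9% of all genes, and 18 were with TMM factors. Of the 17 tested, 5 were past the limits, against 2.22% of all genes tested, and 3 were with TMM factors. The list median was 0.46. Hmox1, the oxygenase that degrades heme, stood at 118 CPM with vehicle and 304 CPM with DHA, 2.58-fold higher with DHA (95% interval 2.5 to 2.67), and was found at equal depth in 66.2% and 87.1% of vehicle and DHA cells. Gclm, a subunit of the enzyme that starts glutathione synthesis, stood at 79.6 and 141 CPM, Srxn1, which reactivates peroxiredoxins, at 45.6 and 77.7 CPM, and Gsr, which reduces glutathione, at 35.4 and 55.8 CPM. The fold of Gsr fell under the limit with TMM factors. Sqstm1, the autophagy receptor, was just short of the limit with a log2 ratio of 0.56, and Txn1 stood at 808 and 819.9 CPM. Nqo1, often used as the index target of NRF2, was all but absent, with 8 and 5 UMIs.

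Among genes of metal handling, those of ferritin were past the limits. Fth1 and Ftl1, the chains of ferritin, stood at 16453 and 26701 CPM and at 8029 and 14156 CPM, 1.62-fold and 1.76-fold higher with DHA. Ftl1 has near-identical copies in the genome, so its counts are uncertain. Slc48a1, which is in none of the lists and carries heme out of the endosome and lysosome, stood at 15.9 CPM with vehicle and 45.3 CPM with DHA, 2.85-fold higher with DHA (95% interval 2.6 to 3.12). The metallothioneins Mt1 and Mt2, which bind zinc and copper, had log2 ratios of 0.25 and 0.31. Over the 14 metal genes measured, 11 (78.6%) were above 0 (9 with TMM factors), against 61.9% of all genes. No other of the 11 tested was past the limits, and the median of 0.16 became -0.07 after SCTransform correction. Of 27 lysosome and autophagy genes 22 were above 0, against 61.9% of all genes, with a median of 0.21 that was above 0 under all 10 alternatives, but 1 of the 22 tested was past the limits. Lipa, the lysosomal lipase that frees cholesterol and fatty acids from lipoproteins, stood at 56.2 CPM with vehicle and 93.2 CPM with DHA, 1.66-fold higher with DHA (95% interval 1.57 to 1.75), and was that member. The cathepsins Ctsd, Ctsl and Ctsb were higher by less, with log2 ratios of 0.52, 0.53 and 0.38.

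Genes of the interferon response were lower with DHA from the ligand to the induced genes, apart from the receptor and several upstream factors. The ligand itself was rare. Ifnb1, interferon beta, was counted 197 times in Veh.LPS.4 and 11 times in DHA.LPS.4, a log2 ratio of -2.75 (95% interval -3.78 to -1.88). These UMIs came from 21 vehicle cells (2.11%) and 5 DHA cells (0.723%), too few to meet the limits, and no UMI of Ifna4 was seen. The interval of the ratio takes no account of so few cells holding the UMIs. At equal depth, Ifnb1 was found in 1.51% of vehicle cells (95% interval 0.848 to 2.48%) and 0.578% of DHA cells (0.158 to 1.47%). Those intervals overlap. The receptor chains and the kinase Jak1 were higher by less than 1.5-fold. Ifnar1 stood at 18.9 and 23.3 CPM, Ifnar2 at 57.8 and 70.4 CPM and Jak1 at 96.3 and 118 CPM. Factors that carry the signal were lower. Stat2 stood at 19.5 CPM with vehicle and 7.17 CPM with DHA, 2.72-fold lower with DHA (95% interval 2.3 to 3.23). Its partner Irf9 stood at 47.4 and 25.5 CPM and Irf1 at 10.5 and 5.85 CPM. Irf7, which amplifies interferon production, stood at 32.6 CPM with vehicle and 11.3 CPM with DHA, 2.89-fold lower with DHA (95% interval 2.53 to 3.31). Each of these factors was past the limits, though Stat2, Irf7 and Irf1 met the limit on cells in Veh.LPS.4 alone. At equal depth, though, Irf1 was found in 17.7% and 9.10% of vehicle and DHA cells, under the limit on cells. Irf3, which acts upstream of Ifnb1, and Irf5 and Irf8 were within 1.5-fold, with log2 ratios of 0.22, -0.08 and -0.23.

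The antiviral genes induced by interferon were lower without exception. All 43 measured were below 0, against 38.1% of all genes. Of the 30 tested, 25 were past the limits, against 2.42% of all genes tested. Some of these entered through Veh.LPS.4 alone, the library where they were high, so that contrast is partly set by the limit on cells. The signs of the 43 do not depend on that limit. The median log2 ratio was -1.13, between -1.55 and -0.99 over the 10 alternatives. Together the 43 genes took 1618 CPM with vehicle and 847 CPM with DHA. Ifit1, which binds foreign RNA at its cap (chromosome 19, 34640889 to 34650009), stood at 43.6 CPM with vehicle and 8.26 CPM with DHA, 5.28-fold lower with DHA (95% interval 4.54 to 6.17). Usp18, which restrains signalling at the interferon receptor, stood at 31.5 CPM with vehicle and 8.48 CPM with DHA, 3.71-fold lower with DHA (95% interval 3.19 to 4.34). Dhx58, a helicase of the RNA-sensing family, stood at 7.94 and 2.0 CPM and Rtp4 at 24.9 and 7.53 CPM. Ifit1, Usp18, Dhx58 and Rtp4 met the limit on cells in Veh.LPS.4 alone, the deeper library. At equal depth Ifit1 and Dhx58 met it in neither library. Other members lay nearer the limit on fold. Eif2ak2, the kinase that halts translation on double-stranded RNA, stood at 210.4 and 117 CPM, Tor3a at 161 and 98.8 CPM and Oasl1, which limits Irf7 translation, at 151 and 93.6 CPM. Mx1 and Cmpk2 had lower ratios still, but on 31 against 1 and 179 against 7 UMIs. The Schlafen genes Slfn5 and Slfn8 stood at 62 and 23.2 CPM and 26.5 and 9.53 CPM, and Slfn8 too met the limit on cells in Veh.LPS.4 alone.

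The GTPases and the p200 family extended the group. Of 12 interferon-induced GTPases, which attack the vacuoles of intracellular pathogens, 11 were lower, against 38.1% of all genes, with a median of -0.97. Irgm1 stood at 40.1 CPM with vehicle and 11.4 CPM with DHA, 3.51-fold lower with DHA (95% interval 3.08 to 4.01). Irgm1, Igtp and Ifi47 were the 3 members tested, and all 3 were past the limits, against 2.42% of all genes tested. Each met the limit on cells in Veh.LPS.4 alone, the library where it was high, so these calls are partly set by that limit. Igtp and Ifi47 stood at 8.16 and 2.59 CPM and 10.5 and 5.49 CPM. At equal depth Igtp was found in 12.6% and 4.05% of vehicle and DHA cells and Ifi47 in 15.5% and 10.5%, under the limit on cells. Tgtp2 had 16 UMIs with vehicle and none with DHA. All 11 members of the p200 family, nuclear DNA sensors and their relatives, were lower, with a median of -0.40. Of the 8 tested, 4 were past the limits, against 2.42% of all genes tested. Ifi207 stood at 170.2 and 67.8 CPM, Ifi213 at 36.6 and 13.6 CPM, Ifi203 at 235 and 145 CPM and Ifi204 at 54.9 and 34.5 CPM. The genes of this family share long stretches of sequence, so the split of reads between them is uncertain.

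The difference showed at the median cell as well as in the upper tail. At 20000 UMIs a cell, the median cell held 25 UMIs of the antiviral list with vehicle and 13 with DHA. At least 20 such UMIs were found in 63.0% of vehicle cells (95% interval 59.95 to 66.1%) and 25.7% of DHA cells (22.5 to 29.2%), and at least 40 in 26.0% and 6.65%. These intervals cover the draw of cells within 1 library each, not the spread between cultures, and are no test of DHA. The upper tails were apart as well, with 99th percentiles of 165 and 88.5 UMIs. Without LPS the medians had been 12 UMIs with vehicle and 12.5 with DHA, and at 1 h they were 10 and 12. Thus the median of the DHA cells at 4 h lay near those at 0 and 1 h, while that of the vehicle cells lay above them.

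**Figure D3:**
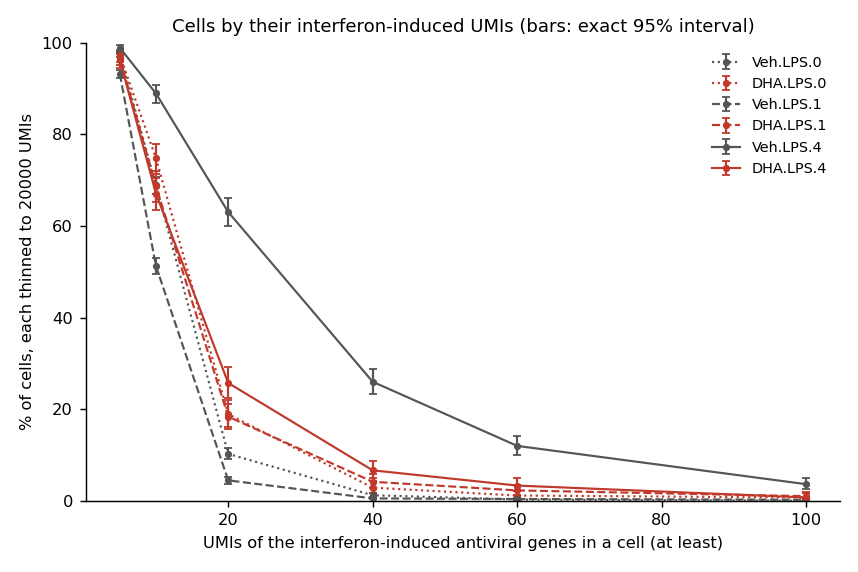
Percent of cells (vertical axis) with at least a given number of UMIs from the interferon-induced antiviral list (horizontal axis), after thinning every cell to 20000 UMIs, for vehicle (grey) and DHA (red) at 0, 1 and 4 h of LPS. Bars are exact 95% binomial intervals over the cells of 1 library each, not over cultures. At 4 h the vehicle curve lies above the DHA curve at 20 UMIs, 63.0% against 25.7%, while at 1 h the DHA curve is the higher.

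Of 16 cytokines 13 were lower, against 38.1% of all genes, with a median of -0.32. Of the 13 tested, 3 were past the limits on the lower side, against 2.42% of all genes tested. Their summed level was nearly equal, 6721 CPM with vehicle and 6715 CPM with DHA, and the median cell at equal depth held 101 and 108.5 of their UMIs. Il6 stood at 36.6 CPM with vehicle and 16.9 CPM with DHA, 2.17-fold lower with DHA (95% interval 1.94 to 2.43). It met the limit on cells in Veh.LPS.4 alone. Il27, a subunit of interleukin 27, stood at 38.4 and 22.3 CPM, while its partner Ebi3 stood at 119.7 and 116 CPM. Il1b, the inflammasome substrate, stood at 792 CPM with vehicle and 485 CPM with DHA, a log2 ratio of -0.71 (95% interval -0.74 to -0.68). An Il1b UMI was found at equal depth in 69.4% and 65.6% of vehicle and DHA cells, and the 90th percentile was 50 UMIs against 29.9, so the libraries were further apart in the cells with the most Il1b than in the share of cells with any. Tnf, an early NF-kB target, was lower by less than 1.5-fold at 2287 and 1864 CPM, and Il1a stood at 191 and 139 CPM. The antagonist Il1rn was higher, at 913 and 1082 CPM, as was Csf3, the granulocyte growth factor, at 1622 and 2305 CPM, both short of the limit. Il10 had 27 and 8 UMIs, and Ifng and Il12a had none.

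Several chemokines with strong expression in both libraries were within 1.5-fold. Ccl2, Ccl3 and Ccl4, which draw monocytes and lymphocytes, stood at 11723 and 12407 CPM, 12558 and 10751 CPM and 11012 and 8159 CPM, and Cxcl2, which draws neutrophils, at 13362 and 11764 CPM. Ccl7 was past the limits on the higher side at 1083 and 1658 CPM, 1.53-fold, but not with TMM factors, and Ccl5, a late gene that NF-kB and the interferon factors share, stood at 190.0 and 274 CPM. Cxcl10, an interferon-induced chemokine for T cells, stood at 61.8 CPM with vehicle and 29.8 CPM with DHA, 2.07-fold lower with DHA (95% interval 1.91 to 2.26), and was the 1 CXC member past the limits. It was found at equal depth in 18.6% and 15.2% of vehicle and DHA cells. Pf4 was higher on low counts, with 66 and 86 UMIs. Over the lists, 5 of 11 CC members were higher and 6 lower with a median of -0.22, and 2 of 5 CXC members were higher and 3 lower with a median of -0.18.

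The signalling genes upstream were near the background. None of the 16 genes of TLR4 signalling was past the limits with library totals, 8 were higher and 8 lower, and the median was -0.01. With TMM factors 6 were higher and 10 lower, and 1 was past the limits on the lower side. The co-receptor Cd14 stood at 1943 and 1742 CPM, Myd88 at 41.1 and 33.8 CPM and Ticam1, which encodes TRIF, at 19.1 and 13.4 CPM. Among 22 genes of NF-kB and its feedback, 10 were higher and 12 lower, with a median of -0.10. The inhibitor Nfkbia, an early readout of NF-kB, stood at 1002 and 944 CPM. Past the limits were Dusp2, a phosphatase of MAP kinases, at 25.2 and 11.3 CPM, and Zfp36, which speeds the decay of cytokine mRNAs, at 119 and 70.6 CPM. Among immediate-early factors, 9 of 13 were lower, against 38.1% of all genes, with a median of -0.22. Junb was past the limits at 419 and 265 CPM. Egr1 was lower by a similar ratio, at 17.8 and 10.5 CPM, in too few cells to be counted.

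Regulators of G-protein signalling were among the genes lower. Rgs2, which ends signals of Gq-coupled receptors, stood at 82.4 CPM with vehicle and 26 CPM with DHA, 3.17-fold lower with DHA (95% interval 2.91 to 3.46), and Rgs1, which dampens chemokine receptors, at 479 and 213 CPM. Cx3cr1, the receptor for fractalkine, stood at 84.4 and 43.2 CPM and Rasgef1b, an LPS-induced exchange factor, at 51.2 and 23.9 CPM. In this list 15 of 21 members were lower, against 38.1% of all genes, with a median of -0.31. Of the 15 tested, 6 were past the limits on the lower side, against 2.42% of all genes tested. Phlda1 stood at 328 and 205 CPM, and the remaining member past the limits was Cysltr1, the leukotriene receptor, at 6.71 and 4.4 CPM, which is named because it completes the count. Enzymes of itaconate, arginine and amino acids did not move as a group, with 4 of 9 higher and a median of -0.04. Acod1, which makes itaconate, stood at 885 and 827 CPM and Nos2 was rare at 12 and 16.8 CPM. Il4i1, an amino acid oxidase that restrains T cells, stood at 37.4 CPM with vehicle and 6.44 CPM with DHA, 5.8-fold lower with DHA (95% interval 4.89 to 6.92), and Sat1, which breaks down polyamines, at 514 and 326 CPM.

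Eicosanoid genes were balanced, with 7 higher, 7 lower and a median of -0.02. Ptgs2, the inducible cyclooxygenase, stood at 465 and 373 CPM, and Ptges, which makes prostaglandin E from its product, at 8.84 and 16.5 CPM, 1.86-fold higher with DHA (95% interval 1.62 to 2.13). The call on Ptges was lost after SCTransform correction and in cells thinned to equal depth. Alox5ap, needed for leukotriene synthesis, was higher by less, at 155 and 193 CPM. Of 15 apoptosis regulators, 10 were lower, against 38.1% of all genes, with a median of -0.16. The survival gene Bcl2a1d stood at 1160.4 and 678 CPM, with uncertain counts since its copies are near-identical, and the death genes Bcl2l11 and Pmaip1 stood at 185 and 108 CPM and 9.78 and 5.81 CPM. These 3 of the 15 tested were those past the limits, against 2.42% of all genes tested, so genes of both roles were lower.

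Surface receptors were mixed. Of 19 measured, 14 were above 0 (12 with TMM factors), a share near the 61.9% of all genes, with a median of 0.31, and of the 13 tested 1 was past the limits in each direction. Their summed level was 17730 CPM with vehicle and 14606 CPM with DHA. Cd300a, an inhibitory receptor for lipids on dying cells, stood at 27 CPM with vehicle and 98.4 CPM with DHA, 3.64-fold higher with DHA (95% interval 3.41 to 3.88), and was found at equal depth in 35.3% and 79.5% of vehicle and DHA cells. Gpnmb, a glycoprotein of lipid-laden macrophages, stood at 11.1 and 45.7 CPM, a log2 ratio of 2.05, and was detected in 12.2% of vehicle and 24.1% of DHA cells, short of the limit on cells. The lectins Clec4e and Lgals3 were higher by less than 1.5-fold, at 1211 and 1751 CPM and 1579.5 and 2222 CPM. Spp1, the secreted matrix protein osteopontin, was past the limits on the lower side at 12599 and 7935 CPM. Among lineage factors and growth factor receptors, Klf2, a factor that quiets macrophages, stood at 6.62 CPM with vehicle and 26.8 CPM with DHA, 4.04-fold higher with DHA (95% interval 3.55 to 4.61). At equal depth Klf2 was found in 8.66% and 22.7% of vehicle and DHA cells, under the limit on cells. Klf4, its relative, and Csf2rb, the shared signalling chain of the GM-CSF receptor, stood at 10.1 and 16.3 CPM and 12.9 and 21.4 CPM. Both calls were lost after SCTransform correction, under which the list median of 0.18 became -0.02. The lineage factor Spi1 and the receptor Csf1r were within 1.5-fold, at 317 and 271 CPM and 36.7 and 31.3 CPM.

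Antigen presentation was balanced, with 8 of 17 higher and a median of -0.06. Tap1, the interferon-induced peptide transporter, was the 1 member past the limits, at 14.3 and 9.07 CPM, while H2-D1 and B2m, of the class I complex it serves, stood at 1274 and 1419 CPM and 837 and 839 CPM. Of 22 glycolysis and hypoxia genes 19 were above 0, against 61.9% of all genes, with a median of 0.30 that stayed above 0 with TMM, DESeq2 and SCTransform. Bnip3, a hypoxia-induced receptor for mitophagy, stood at 44.7 and 82.6 CPM and Hk1, the first enzyme of glycolysis, at 25.6 and 39.6 CPM, and these were the members past the limits, Hk1 not with TMM factors. Gapdh, Pkm and Ldha differed little, with log2 ratios of 0.14, 0.16 and 0.30.

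Genes of mitosis were higher. All 20 measured were above 0, against 61.9% of all genes. Of the 19 tested, 14 were past the limits, against 2.22% of all genes tested, and the median was 0.66. With TMM factors 8 of the 19 were past the limits, and the median was 0.58. Cenpf, of the kinetochore, stood at 35.8 CPM with vehicle and 70.2 CPM with DHA, 1.96-fold higher with DHA (95% interval 1.84 to 2.1). The kinesins Kif23 and Kif11 stood at 23.4 and 42.5 CPM and 13.3 and 24.5 CPM, Top2a, the topoisomerase that untangles chromosomes, at 103 and 164 CPM, and the proliferation marker Mki67 at 97.3 and 153 CPM. Kif11 met the limit on cells in DHA.LPS.4 alone. Mki67 was not past the limits with TMM factors, and Top2a with neither DESeq2 nor SCTransform scaling. Ube2c, which marks mitotic proteins for decay, stood at 109 and 118 CPM, and its log2 ratio was below 0 after SCTransform correction. Outside the list, the spindle and kinetochore genes Prc1, Sgo1, Nuf2 and Kif20b were among the 25 highest ratios past the limits, at 29.5 and 60.7 CPM, 11.6 and 22.7 CPM, 9.88 and 18.6 CPM and 17.7 and 33.4 CPM, Nuf2 not after SCTransform correction. At equal depth the median cell held 4 mitosis UMIs with vehicle and 5 with DHA, the 75th percentile was 16 and 33, and the 90th was 40 and 64.9. The libraries thus differed in the cells with the most mitosis UMIs more than at the median. In the 404 vehicle and 210 DHA cells with at most 2 mitosis UMIs, the antiviral median was -1.22 and the cholesterol median -1.18, and 166 of the 186 genes lower and 97 of the 170 genes higher were still past the limits. The loss of mitosis genes from the 170 was built into this choice of cells.

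Replication and histone genes had smaller ratios, none past the limits. Of 22 replication genes 20 were higher, against 61.9% of all genes, and 18 were with TMM factors. The median was 0.29. Rrm1, which makes deoxynucleotides, stood at 41.7 and 56.8 CPM, and Pcna and Tyms stood at 98.2 and 95.6 CPM and 55.3 and 53 CPM. Of 9 histone genes 7 (77.8%) were higher, against 61.9% of all genes, with a median of 0.34 that fell below 0 after SCTransform correction. Histone genes are near-identical copies and most of their mRNAs lack the poly(A) tail that the capture needs, so these counts are uncertain.

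Stress and housekeeping lists stood near or below the median of all genes. Among ATF4 and CHOP targets, 7 of 18 were higher and the median was -0.05. With TMM factors 3 were higher, and 3 were past the limits on the lower side, against 1 with library totals. Atf3, a stress-induced repressor of inflammatory genes, was past the limits at 419 CPM with vehicle and 261 CPM with DHA, 1.6-fold lower with DHA (95% interval 1.56 to 1.65). Among 16 chaperones of the endoplasmic reticulum, 12 were lower, against 38.1% of all genes, with a median of -0.15. Herpud1, of the degradation machinery there, was past the limits at 325 and 204 CPM, and Hspa5, the main chaperone, stood at 2223 and 1790.1 CPM. All 24 ribosomal protein genes were lower, against 38.1% of all genes, none past the limits, with a median of -0.11. The nuclear genes of the respiratory chain, 12 higher and 13 lower (4 and 21 with TMM factors), had a median of -0.01, and the 13 mitochondrially encoded genes one of -0.04.

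Several genes with extreme ratios belonged to no list. On the higher side were Anpep, the aminopeptidase of the cell surface, at 7.07 and 16.2 CPM, and Abcc5, an exporter, at 6.23 and 13.4 CPM. Chchd10 and Cox6a2, of the mitochondrial cristae and of cytochrome c oxidase, stood at 23 and 48.6 CPM and 16.3 and 34.5 CPM. Slc6a8, the creatine transporter, stood at 17.1 and 33.2 CPM, Ampd3, an AMP deaminase, at 15.5 and 30.03 CPM, and Pmp22, a membrane protein, at 159 and 306 CPM. All of these were at least 1.93-fold higher and stayed past the limits with TMM factors. At equal depth Anpep was found in 11.2% and 22.3% of vehicle and DHA cells and Abcc5 in 11.3% and 20.2%, under the limit on cells. Mgat4b, which branches N-glycans, stood at 42.4 and 88.5 CPM and was found at equal depth in 51.8% and 79% of vehicle and DHA cells. Plxna1, a semaphorin receptor, stood at 7.88 and 15.6 CPM and Ahnak2 at 17.4 and 37.6 CPM. On the lower side were Gpr85, an orphan receptor, at 31.6 and 11.9 CPM, Mogat1, which makes diacylglycerol, at 9.04 and 3.18 CPM, Psd3, an exchange factor of ARF GTPases, at 10.3 and 3.4 CPM, and Fbxo15 at 8.91 and 3.31 CPM. Gm5483 stood at 108 and 40.4 CPM but was found at equal depth in 17.8% and 17.3% of vehicle and DHA cells, so its difference lay in the UMIs per positive cell. It belongs to a cluster of similar genes, and its counts are uncertain. Near the limit itself, Cdk1 was just inside with a log2 ratio of 0.59 and Bst2 just outside with -0.58. These 2 were named after their values were seen.

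The same comparison at 0 and 1 h of LPS used other libraries, each with 1 library per side. Without LPS, 91 genes (1.08% of 8434 tested) were higher with DHA and 80 (0.949%) were lower. At 1 h, 104 genes (1.33% of 7794) were higher and 135 (1.73%) lower. Of the 170 genes higher at 4 h, 37 were also higher at 0 h, 21.8% of the 4 h list and 40.7% of the 0 h list, and 37 at 1 h, 21.8% and 35.6%. Of the 186 genes lower at 4 h, 23 were lower at 0 h, 12.4% and 28.8% of the lists, and 42 at 1 h, 22.6% and 31.1%. The counts of genes past the limits in that direction at 4 h alone were 127 higher and 144 lower. These include genes that were not tested at the earlier hours. Of the 186 genes lower, 142 were tested at 0 h and 141 at 1 h, and 99 and 97 of those had the same sign. Of the 170 genes higher, 164 and 162 were tested, and 102 had the same sign at each hour. For comparison, among all genes measured at 4 h, 4925 were higher with DHA and 6987 lower at 0 h. At 1 h, 4887 were higher and 7072 lower, so most genes were lower at both hours. Genes lower at all 3 hours numbered 23 and were for the most part of lipid synthesis. They included Scd1, Scd2, Fads2, Fasn, Fdps, Hmgcs1, Idi1, Lss and Insig1, and also Cx3cr1. Genes higher at all 3 hours numbered 31. They included Plin2, Hilpda, Hmox1, Fth1, Ftl1, Lipa, Cd300a, Klf2, Anpep, Chchd10 and Ccl7. The members named here were chosen by this pattern after their values were seen.

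Plin2 stood at 68 CPM with vehicle and 419 CPM with DHA at 0 h, and at 70.1 and 530.1 CPM at 1 h. The difference was thus present before LPS was added. Scd1 had log2 ratios of -2.68 at 0 h and -3.09 at 1 h, against -5.00 at 4 h, where its vehicle level was also lower, 42.3 CPM at 0 h and 17.4 CPM at 4 h. The medians of the cholesterol list were -0.62, -0.88 and -0.92 at 0, 1 and 4 h, those of fatty acid synthesis -0.53, -0.72 and -0.69, and those of the NRF2 list 0.39, 0.37 and 0.46. These lists kept 1 direction through the LPS response. Lpl behaved otherwise, with log2 ratios of 0.13 and -0.02 at 0 and 1 h against -1.06 at 4 h.

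The interferon lists did not keep their direction. The antiviral list had medians of 0.44 at 0 h and 0.71 at 1 h, with 33 and 42 of 43 members higher with DHA, and -1.13 at 4 h, with all 43 lower. Its summed level in the vehicle libraries was 642, 535 and 1618 CPM at 0, 1 and 4 h, and in the DHA libraries 764, 792 and 847 CPM. The vehicle level at 4 h thus stood apart from the other 5 libraries. Irf7 went from 8.47 and 17.5 CPM with vehicle and DHA at 0 h to 32.6 and 11.3 CPM at 4 h. The p200 list had medians of 0.18, 0.61 and -0.40, and the GTPases 0.35, 0.70 and -0.97. Il6 was rare before 4 h, at 0.192 and 1.88 CPM with vehicle and DHA at 0 h and 0.994 and 6.1 CPM at 1 h. Rgs2 had log2 ratios of 0.27 at 0 h, -1.56 at 1 h and -1.67 at 4 h.

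The cell cycle lists also turned. Mitosis genes had medians of -0.41 and -0.51 at 0 and 1 h, with all 20 lower with DHA, against 0.66 at 4 h, with all 20 higher. Their summed level with vehicle was 3194, 3052 and 756 CPM at 0, 1 and 4 h, and with DHA 2351, 2078 and 1144 CPM, so the 4 h level lay below the 0 h level with both treatments, and further below it with vehicle. Replication genes had medians of -0.34, -0.47 and 0.29, and histones -0.61, -0.65 and 0.34, the last below 0 after SCTransform correction. All these signs held with TMM factors at each hour. The differences between hours were not tested, because each hour had 1 library per side. The order of depth turned too: the median kept cell had more UMIs with DHA at 0 and 1 h and with vehicle at 4 h.

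**Figure D4:**
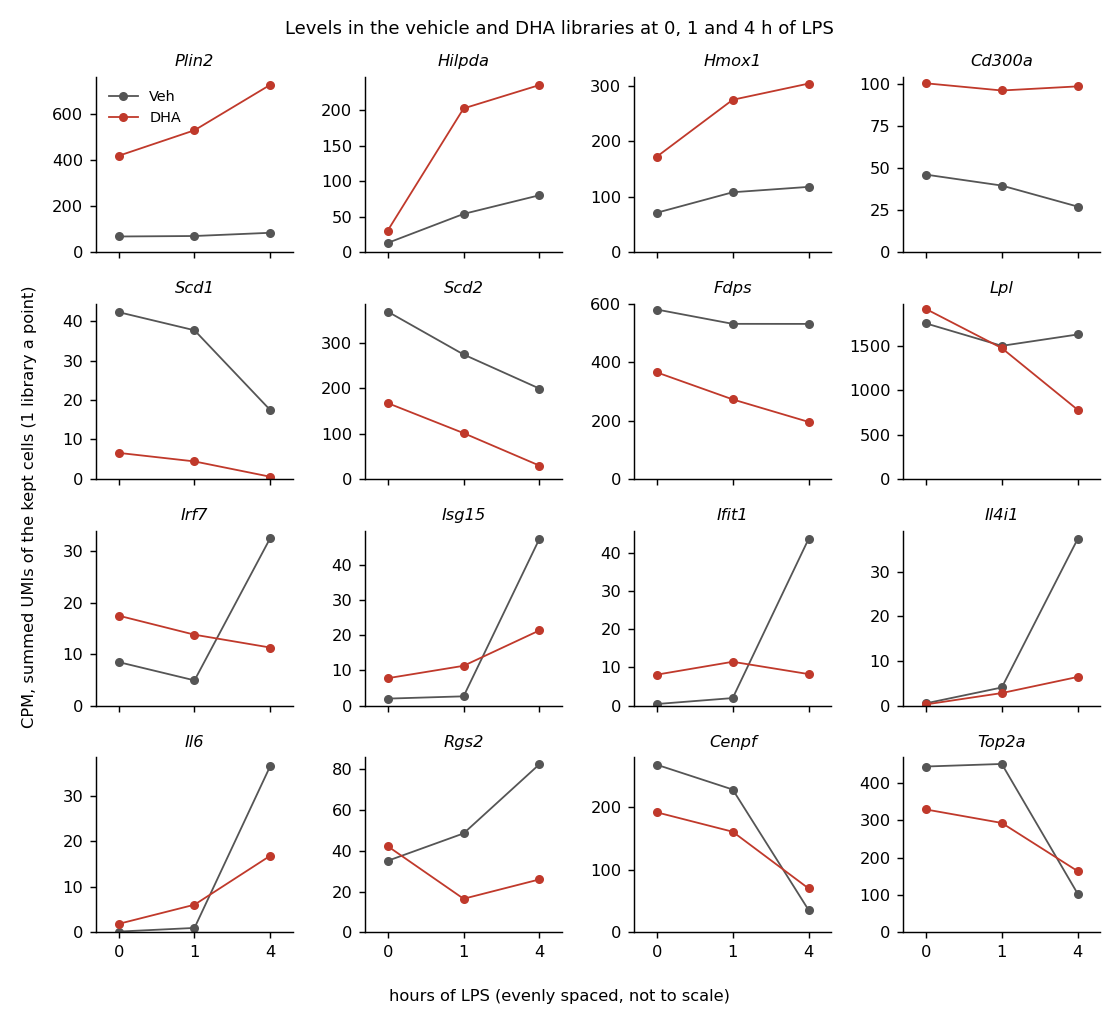
Level in CPM of 16 genes at 0, 1 and 4 h of LPS, with vehicle in grey and DHA in red. Vertical axes give each gene its own scale from 0, and horizontal axes are evenly spaced and not to scale. Each point is 1 library, and no intervals are drawn. The genes were chosen after their values were seen; Plin2 and Hmox1 are higher with DHA and Scd1, Scd2 and Fdps lower at every hour, whereas Irf7 crosses from higher to lower and Top2a from lower to higher with DHA.

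**Figure D5:**
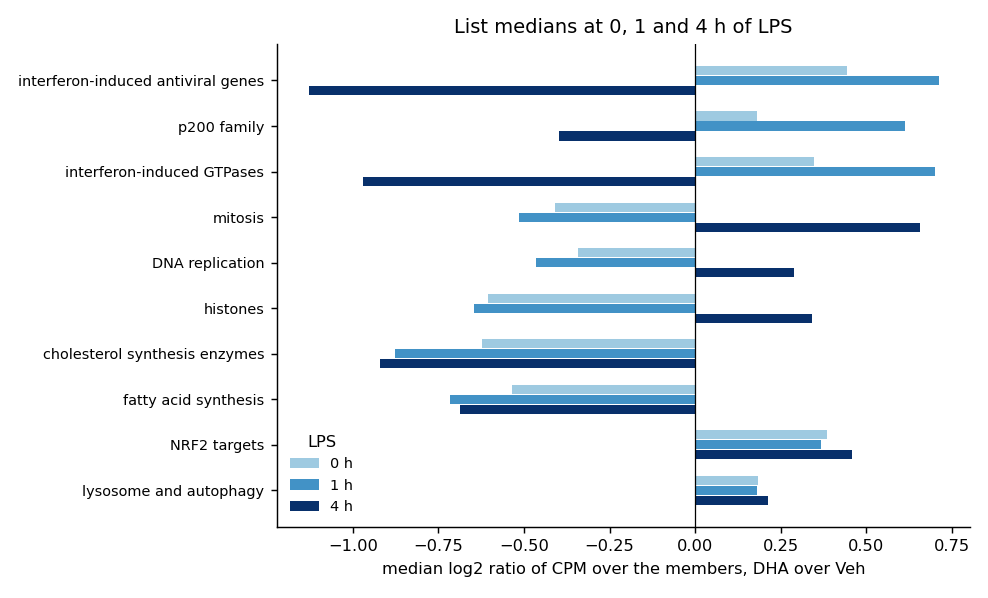
Median log2 ratio of CPM of DHA over vehicle (horizontal axis) for 10 gene lists (rows), with a bar each for 0, 1 and 4 h of LPS and 1 library per side and hour. The cholesterol and fatty acid synthesis bars are below 0 and the NRF2 bars above 0 at all 3 hours, while the interferon lists are above 0 at 0 and 1 h and below it at 4 h, and the mitosis, replication and histone lists do the reverse, the histone list at 4 h not after SCTransform correction.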

How the data were processed

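Droplet 3' RNA libraries of 7 FLM cultures were deposited by the authors as UMI counts per gene and barcode, made with Cell Ranger on the mm10 genome. The file headers and the submitters' processing notes give version 3.1.0 of that tool. Barcodes were filtered with the limits of the study, as given with the results, and no doublet caller was run; a count without the 5% of cells with the most UMIs stands in for it. UMI counts were summed per library over 31053 genes and scaled to CPM (Python 3.11.15, numpy 2.4.6, scipy 1.17.1). The alternatives were TMM factors (edgeR 4.0.16), DESeq2 1.42.0 size factors and SCTransform (sctransform 0.4.2). Ratios have exact binomial and levels exact Poisson intervals. Shares of cells were taken after drawing 20000 UMIs from each cell. The ratio, its interval and the thinning were tested on simulated data. Each side was 1 library, so no p-value was computed, and nothing in the labels says that cultures were repeated.

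Genes named in the text are the 25 highest and 25 lowest ratios past the limits with at least 10 UMIs in each library; from each of 34 lists the 6 members with the largest ratios in either direction and the 3 with the highest CPM; and all members of the cytokine, chemokine, interferon signalling and marker lists. Exceptions are said to be such, and some members are not reported here. The comparison and the lists were chosen with earlier results of these data known, so the lists' directions are no independent evidence. Of the symbols in the lists, 5 were not used here. Genes with near-identical copies share reads. No promoter sequence was at hand, so the search for promoter motifs was not run. Gene positions were matched by symbol for 362 of the 378 named genes.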

Additional observations from a re-analysis of the deposited data

Results flagged for a closer look

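Genes and lists are given here where the DHA libraries lay on 1 side of the vehicle libraries at 4 h of LPS and on the other side at 0 or 1 h, past the limits each time for genes. Values are log2 ratios of DHA over vehicle. Each hour had 1 library per side, so the difference between hours was not tested. Every sign held with TMM factors, but not every gene stayed past 1.5-fold with them. Depth and the share of barcodes lost differed between these libraries too. The median kept cell had 46928 UMIs with DHA and 36897 with vehicle at 0 h, and 37202 and 29369 at 1 h. At 4 h the order was reversed, at 29631 and 56239. Of barcodes over the UMI and gene limits, 8.40% with DHA and 0.958% with vehicle reached the mitochondrial limit at 0 h. The shares were 5.36% and 0.486% at 1 h and 3.08% and 9.32% at 4 h. The part of these differences in the result was not tested.

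Interferon genes turned from higher to lower. Irf7 was -1.53 at 4 h, 1.05 at 0 h and 1.49 at 1 h, Oasl1 -0.69, 1.59 and 1.92, Xaf1 -0.97, 0.77 and 1.28, and Slfn5 -1.42, 0.67 and 1.15. At 1 h alone the opposite sign was past the limits for the RNA sensor Ddx58 (-1.37 at 4 h, 0.71 at 1 h), Ifi207 (-1.33, 0.61), Ifi203 (-0.70, 0.86), Irf9 (-0.89, 0.60), Irf1 (-0.84, 0.84), Oas1a (-0.75, 0.70) and Oas1g (-0.80, 0.62), the last 2 of which share sequence. The list medians were -1.13 for the antiviral genes against 0.44 at 0 h and 0.71 at 1 h, -0.97 for the GTPases against 0.70 at 1 h and -0.40 for the p200 family against 0.61 at 1 h. Atf3, a stress-induced factor, was -0.68 at 4 h and 0.64 at 0 h.

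Cell cycle genes turned from lower to higher. The medians were 0.66 for mitosis against -0.41 at 0 h and -0.51 at 1 h, 0.29 for DNA replication against -0.34 and -0.47, and 0.34 for histones against -0.61 and -0.65, the histone value at 4 h falling below 0 after SCTransform correction. Against 0 h the genes were Sgo1 (0.97 at 4 h, -0.61 at 0 h) and Cenpe (0.62, -0.63). Against 1 h they were Prc1 (1.04 at 4 h, -0.59 at 1 h), Kif11 (0.88, -0.62), Spc25 (0.80, -0.59), Ckap2l (0.77, -0.64), Ccna2 (0.74, -0.64), Rad51ap1 (0.71, -0.62), Top2a (0.66, -0.62), Mki67 (0.65, -0.62), Asf1b (0.62, -0.68), H2afx (0.61, -0.66) and Cdk1 (0.59, -0.62). With TMM factors, Ckap2l and Ccna2 alone among these genes stayed past 1.5-fold at both of their hours. The others fell short at 4 h, at the earlier hour or, as Cenpe did (0.54 and -0.58), at both. The brain cytoplasmic RNA Bc1 was 0.72 at 4 h and -0.75 at 1 h.

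Barcodes left out as high in mitochondrial RNA also held signal. They made up 80.0% of DHA.LPS.4 and 54.7% of Veh.LPS.4. Summed on their own, 4580 and 1337 barcodes, they gave medians of -1.61 for the antiviral genes, with 42 of 43 lower, and -0.92 for the cholesterol enzymes, with 19 of 20 lower. The 13 genes of fatty acid synthesis were all lower there, with a median of -0.78, and the 11 genes of the p200 family were all lower, with a median of -1.34. In these barcodes the log2 ratio was 3.0 for Plin2, -4.42 for Scd1 and -2.74 for Ifit1. Other lists had the opposite sign to the kept cells, with medians of 0.34 for CC chemokines, 0.44 for CXC chemokines and -0.27 for histones, of which 9 of 9 were lower, and the median of DNA replication was 0.0064. The 24 ribosomal protein genes had a median of 0.0029 in them. Of the 4580 and 1337 barcodes, 22 and 102 were over the UMI and gene limits, and the rest fell short of those as well. Summed alone, these few gave -1.90 for the antiviral genes and -1.24 for the cholesterol enzymes. CC and CXC chemokines had -0.42 and -0.64 there, the sign of the kept cells. Mitosis (-0.74), DNA replication (-0.74) and histones (-1.74) had the opposite sign to the kept cells in these 22 and 102 barcodes. Over all 4580 and 1337 barcodes, mitosis had the sign of the kept cells, with a median of 0.29 and all 20 genes higher.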

How the results depend on the processing

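No paired analysis was possible because there was 1 library per group. The results were recomputed under 13 alternatives for counts of genes and 10 for ratios. Against 170 genes higher with DHA, the count was 109 with TMM factors, 106 with DESeq2 size factors, 46 with SCTransform, 78 with a UMI in 50% of cells, 935 with no limit on the share of cells and 14 at 2-fold. Against 186 lower, it was 229 with TMM factors, 235 with DESeq2 size factors and 633 with SCTransform. It was 896 with no limit on the share of cells, 318 over all deposited barcodes and 67 at 2-fold. The share of genes higher that were also higher at 0 h, 21.8%, became 29.2% with DESeq2 size factors, 34.6% with 50% of cells, 38.0% over all barcodes, 32.8% in cells with at most 2 mitosis UMIs and 57.1% at 2-fold, and the share at 1 h became 33.3% with 50% of cells, 50.9% over all barcodes and 57.1% at 2-fold. For genes lower, the share at 0 h, 12.4%, became 21.4% over all barcodes and 4.48% at 2-fold, and that at 1 h, 22.6%, became 31.4% and 16.4%. SCTransform and the scalings change the zero line by construction, and the limits on cells and fold change how many genes can be counted. The cause of the other shifts was not tested. No list median changed sign with TMM or DESeq2 factors. Both lowered all ratios alike, so only medians above 0 could have changed sign. With SCTransform those of lipid droplets (-0.31), fatty acid uptake and oxidation (-0.08), metal handling (-0.07), lineage factors (-0.02) and histones (-0.04) did. Over all deposited barcodes, which include those high in mitochondrial RNA, the medians of cytokines, CC chemokines, CXC chemokines, replication, histones and glycolysis genes were among those that changed sign, and calls on Fth1, Ftl1, Gclm, Srxn1, Acadl, Bnip3, Ptges, Spp1 and Tap1 were lost. In cells with at most 2 mitosis UMIs the calls on Atf3, Cenpf, Nusap1, Kif23, Kif11, Mki67, Herpud1, Phlda1, Gsr, Hk1, Ifi203 and Oasl1 were lost. Those cells were chosen by their mitosis UMIs, so the losses among mitosis genes were built into the choice. Genes such as Ifnb1, Cpt1a, Mx1 and Il10 were counted in few cells, and the part of depth in this was not tested.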
